A study of Drosophila melanogaster with 3 samples.

Results

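The microRNA genes of Drosophila melanogaster were examined for nearby chromatin binding of Hr4, a nuclear receptor of the ecdysone pathway, in whole white prepupae. The 260 genes described here are those of the Ensembl annotation whose symbol starts with mir-, out of 17683 genes on the 6 main chromosome arms. Both let-7 (annotated as mir-let7) and bantam (annotated as mir-ban) are among them, whereas the let-7 complex is annotated as lncRNA:let7C and is described as the transcript that holds its microRNAs. Chromatin from 3 biological replicates of a transgenic line that carries Hr4 with GFP at its C-terminus was precipitated through the GFP tag and sequenced (ChIP-seq). All 3 replicates are whole prepupae of both sexes pooled, sheared by sonication to 200 to 800 bp, and the labels give their age as 48 days, a unit in doubt since flies reach this stage within days of egg laying. No other genotype, stage or treatment was analysed here, so nothing is compared between conditions, and with whole animals the tissue that gave a peak cannot be told.

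A microRNA gene is transcribed as a long primary transcript, often a non-coding RNA or the intron of a protein-coding gene. The Drosha and Pasha complex cuts a hairpin out of it, Dicer-1 with Loquacious cuts the hairpin to the mature form, and Argonaute-1 with Gawky uses that form to repress messenger RNAs that match its seed, the bases near its 5′ end. The start site, and so much of the control of transcription, can lie far from the hairpin that carries the gene's name. Hr4 is induced by ecdysone around the onset of metamorphosis and acts in the cascade that separates the larval from the prepupal response. Among the microRNAs, let-7, mir-100 and mir-125 rise with metamorphosis, and mir-14 is known for its link to the ecdysone receptor.

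Mature sequences are shown for the microRNAs whose own surroundings or primary transcripts held the strongest or most numerous peaks described below. They were read from the Release 6 (dm6) genome at the RefSeq coordinates, 5′ to 3′, with the seed (bases 2 to 8) in capitals. Where RefSeq gives both arms of a hairpin, the arm with the lower record number is shown. The first 3 come from lncRNA:let7C.
mir-100: aACCCGUAaauccgaacuugug
mir-let7: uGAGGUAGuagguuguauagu
mir-125: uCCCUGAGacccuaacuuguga
mir-ban: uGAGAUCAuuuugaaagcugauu
mir-282: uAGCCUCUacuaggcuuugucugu
mir-275: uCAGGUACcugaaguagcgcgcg
mir-305: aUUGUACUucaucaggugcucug
mir-9a: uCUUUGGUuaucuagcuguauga
mir-279: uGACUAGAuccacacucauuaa
mir-996: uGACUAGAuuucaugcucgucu
mir-92a: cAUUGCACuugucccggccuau
mir-92b: aAUUGCACuagucccggccugc
mir-2a-1: uAUCACAGccagcuuugaugagc
mir-2b-2: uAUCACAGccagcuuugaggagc
The last 6 form 3 pairs, each with a shared seed and a shared stretch of the genome.

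The bases up to 50 bp to each side of the summit, the point of highest signal in a peak, are shown for 3 of the strongest summits within 1 kb of a microRNA gene, on the plus strand of dm6. The summit of mir-282 lay at chr3L:3250169-3250269, that of mir-2491 at chrX:22833679-22833779 and that of mir-92a at chr3R:25646973-25647073.
mir-282: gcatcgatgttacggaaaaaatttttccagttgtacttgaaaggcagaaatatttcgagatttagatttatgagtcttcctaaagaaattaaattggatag
mir-2491: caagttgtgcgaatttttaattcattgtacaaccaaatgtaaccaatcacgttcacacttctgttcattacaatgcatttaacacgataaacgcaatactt
mir-92a: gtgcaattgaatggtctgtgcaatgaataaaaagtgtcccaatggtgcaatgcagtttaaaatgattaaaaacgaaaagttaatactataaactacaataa
The strongest summit in or within 1 kb of 3 primary transcripts is shown as well, chosen after the values were seen. These lay at chr3R:29214395-29214495, at chr3L:636595-636695 and at chr2L:18465481-18465581.
lncRNA:CR31044: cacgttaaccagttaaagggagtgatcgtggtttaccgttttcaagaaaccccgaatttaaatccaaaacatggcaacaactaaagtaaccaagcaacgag
lncRNA:CR43334: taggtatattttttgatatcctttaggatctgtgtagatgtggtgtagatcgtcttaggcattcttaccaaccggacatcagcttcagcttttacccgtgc
lncRNA:let7C: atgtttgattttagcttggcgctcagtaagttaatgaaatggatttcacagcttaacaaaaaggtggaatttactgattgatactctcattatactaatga
None of these windows held AGGTCA, the core hexamer that many nuclear receptors bind, on either strand, so no base is in capitals. Their GC content ranged from 29.7% for mir-92a to 41.6% for lncRNA:CR43334.

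Summits of the reproducible list, which the authors kept from peaks of the pooled replicates, were counted around each gene. A summit lay within 1 kb of 28 of the 260 microRNA genes (10.8%) and within 5 kb of 94 (36.2%). A further 66 genes were thus first reached between 1 and 5 kb, and 166 had no summit within 5 kb. No summit lay inside a microRNA gene, whose median length is 92 bp, and the smallest distance was 61 bp. The median distance to the nearest summit was 7622 bp. The largest, at mir-2279, was 1460649 bp.

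These shares were set beside genes of other kinds and beside the arms themselves. Of all genes, 28.1% had a summit within 1 kb and 50% within 5 kb, but their median length is 1710 bp, and a longer span can hold more summits. Of the 749 other genes of at most 200 bp, 11.9% had one within 1 kb and 46.7% within 5 kb. For tRNA genes the shares were 16.9% and 55.9%, and for snoRNA genes 11.9% and 57.6%. Those of at most 200 bp are among the 749 as well. Of all positions on the arms, 10.9% lay within 1 kb of a summit and 34.2% within 5 kb. The share of microRNA genes was therefore close to that of arm positions at both distances. At 5 kb it was below that of other short genes, an order that held with some of the peak sets used and turned with others. With the highest entries of replicate 2 alone, 38.1% of microRNA genes and 48.9% of other short genes had a summit within 5 kb. With those of replicate 3 the shares were 36.9% and 48.3%. The order turned with the peaks above the median signal, at 26.5% and 21.6%, and with the highest entries of replicate 1, at 38.5% and 37.7%. No test was made of these differences.

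**Figure D1:**
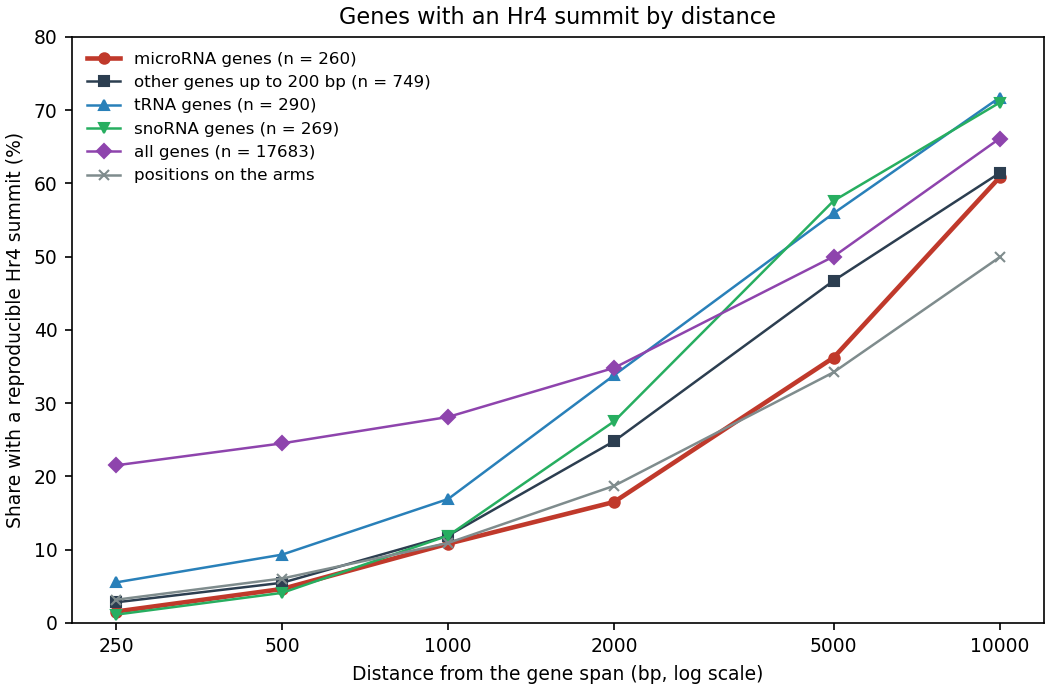
Share of genes (%) with a reproducible Hr4 summit within a given distance of the gene span (bp, log scale), for microRNA genes, 4 other sets of genes and all positions of the chromosome arms. MicroRNA genes run from 1.54% at 250 bp to 60.8% at 10 kb. They lie below the line of arm positions at 250 bp (1.54% against 3.15%) and above it at 10 kb (60.8% against 49.9%). At 1 kb (10.8% against 10.9%) and 5 kb (36.2% against 34.2%) they lie close to it.

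Neighbouring microRNA genes share summits and are not independent of each other. Joined where they lie within 10 kb, the 260 genes formed 198 loci, of which 24 (12.1%) had a summit within 1 kb of a gene and 76 (38.4%) within 5 kb. The 28 genes had 29 distinct summits within 1 kb, and the 94 genes had 161 within 5 kb, or 1.85% of the 8687 reproducible summits on the arms. Within 5 kb, the share of microRNA genes with a summit was 44.6% on 2L, 40.0% on 2R, 45.2% on 3L, 31.0% on 3R and 24.1% on the X. Of all genes on those arms, 48.8%, 45.8%, 54.8%, 50.4% and 51.0% had one, and of all positions 36.4%, 30.7%, 35.8%, 34.1% and 35.1%. The X, with 14 of 58 microRNA genes, was thus the lowest of these 5 arms for microRNA genes but not for all genes, and its largest cluster, of 12 genes, has a single summit within 5 kb of any of them.

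The nearest summit lay upstream of the microRNA, on its own strand, for 21 of the 28 genes (75.0%). Within 5 kb, 129 of 198 pairs of a gene and a summit (65.2%) had the summit upstream. Other short genes gave 57 upstream and 30 downstream within 1 kb, snoRNA genes 26 and 6, and tRNA genes 29 and 19. These sets overlap, and an excess upstream was thus also seen outside microRNA genes.

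**Figure D2:**
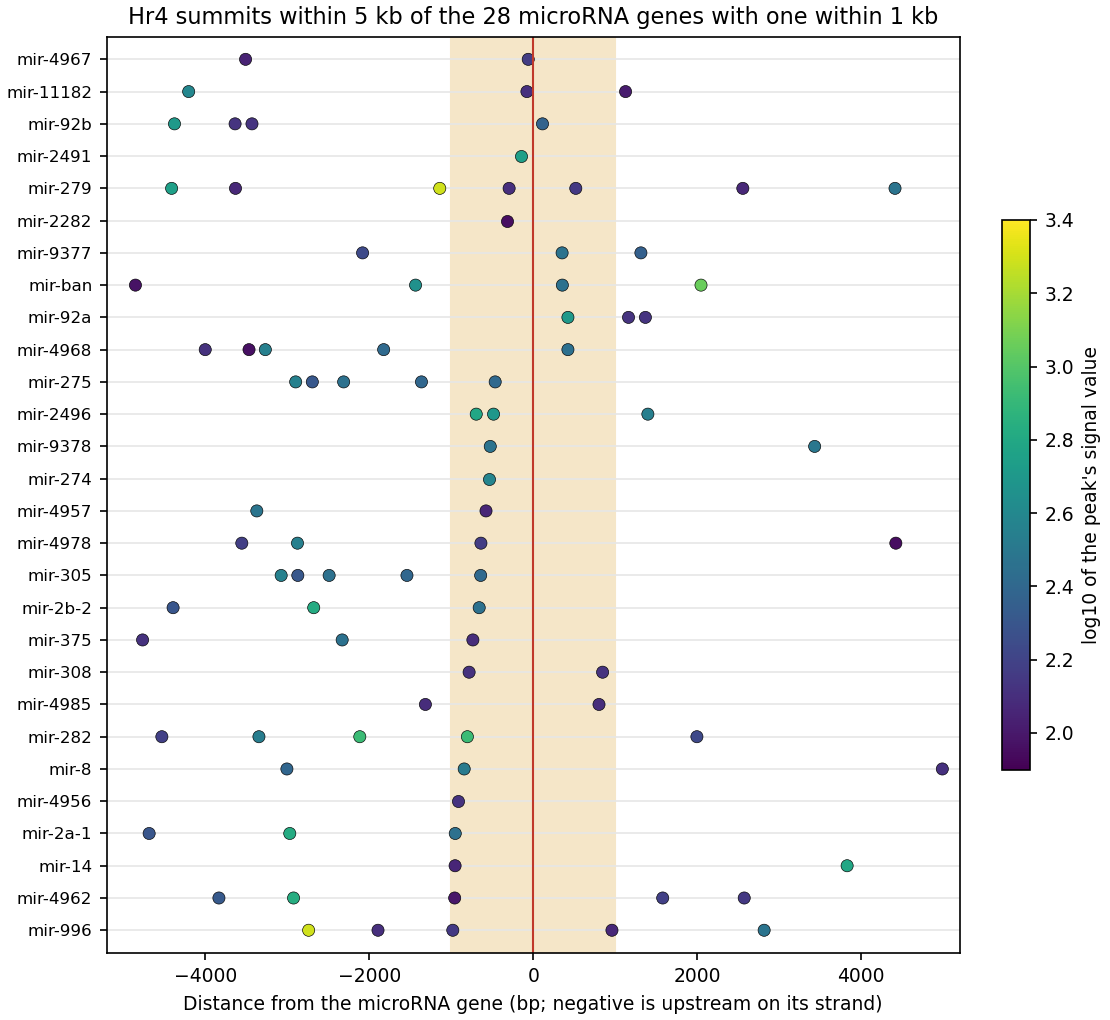
Hr4 summits within 5 kb of the 28 microRNA genes that had one within 1 kb (shaded), by distance from the gene in bp, negative upstream on its strand, and coloured by the log10 of the peak's signal value. Most of the nearest summits lie upstream (21 of 28), and the brightest point, upstream of mir-279 and mir-996, has a signal value of 1961.

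For 53 of the 260 genes the smallest longer gene that holds them is non-coding, usually the annotated primary transcript. In this group 9 (17.0%) had a summit within 1 kb and 21 (39.6%) within 5 kb. The 33 distinct long non-coding RNA (lncRNA) genes that hold a microRNA had 46 summits in their spans, and 18 of them (54.5%) had a summit within 1 kb of the span, where 24.0% of all lncRNA genes had one. These hosts are long, with a median of 5165 bp against 662 bp for all lncRNA genes. Within the middle range of host lengths, 2677 to 13923 bp, 7 of 17 hosts (41.2%) and 35.2% of 128 lncRNA genes had a summit. Per kb of span, hosts held 0.122 summits and all lncRNA genes 0.0852.

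The let-7 complex (lncRNA:let7C, chr2L:18455717-18473132, plus strand) held 5 summits, all in introns. The strongest had a signal value of 500.5, which ranks 958 of 8693, and lay 9814 bp from the annotated start. Its percentile within each replicate's own relaxed list of 30000 entries, where higher is stronger, was 96.2, 97.0 and 96.7. A summit 639 bp after the start was weak, at rank 6399. The 3 hairpins lie at the far end of the transcript, and the summit closest to them, at rank 6075, was 3242 bp upstream of mir-100, 3842 bp upstream of mir-let7 and 4123 bp upstream of mir-125. So none of these 3 microRNA genes had a summit within 1 kb, and the summits of the complex sat in the long intron region before them. In worms and flies let-7 times late developmental transitions.

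The bantam transcript (lncRNA:CR43334, chr3L:628435-643900, plus strand) held 7 summits, with another on each side within 1 kb. The strongest, 8210 bp from the start, had a signal value of 1176 and rank 132, with percentiles of 99.5, 99.5 and 99.6 in the 3 replicates. Others inside the transcript had ranks 472 and 680, with signal values of 716.4 and 605.3. A summit 2046 bp downstream of mir-ban, beyond the annotated end of the transcript, had a signal value of 1135 and rank 147. The nearest to mir-ban itself, 355 bp downstream, was weaker, with a signal value of 289.6 and rank 2336. The summits at ranks 132 and 147 thus lay away from the hairpin, and both were near the top of every replicate. Bantam promotes growth and blocks cell death through the gene hid.

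The strongest summit within 5 kb of any microRNA gene lay at the start of lncRNA:CR31044 (chr3R:29214562-29219667, plus strand), which holds mir-279 and mir-996. It lay 117 bp before the annotated start, with a signal value of 1961, rank 29, and percentiles of 99.8, 99.9 and 99.9. It was 1140 bp upstream of mir-279 and 2739 bp upstream of mir-996. Summits closer to the hairpins were weak: mir-279 had one 294 bp upstream at rank 6185 and mir-996 one 960 bp downstream at rank 6653. With 7 summits within 5 kb, mir-279 had the most of any microRNA gene. The pair shares a seed and acts in sensory neurons of the fly.

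The strongest summit within 1 kb of a microRNA gene belonged to mir-282 (chr3L:3251022-3251118), in an exon of lncRNA:CR43626. It lay 803 bp upstream with a signal value of 832.7, rank 340, and percentiles of 99.0, 98.6 and 99.0. A second of nearly equal signal, 839.5 at rank 334, lay 433 bp before the start of the transcript. The transcript's start was thus flanked by 2 strong summits.

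Around mir-275 and mir-305 (chr2L:7425795-7425892 and chr2L:7425972-7426044), 5 summits of middling rank lay in a row. Their signal values ran from 201.9 to 358.8 and their ranks from 1680 to 3708, and all 5 were upstream of both hairpins. The closest was 464 bp from mir-275 and 641 bp from mir-305. The annotated transcript lncRNA:CR43857 contains mir-275 whole and ends before mir-305. The 2 summits farthest upstream have the same percentiles in replicates 1 and 3 (97.4 and 95.0), where neighbouring summits can share an entry. In replicate 2 the farthest was at 91.2 and the next at 52.0.

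Both mir-8 and mir-14 lie on arm 2R in exons of a non-coding gene, with a summit close to an annotated start of it. For mir-8, known from growth control in the fat body, the summit was 842 bp upstream of the hairpin and 99 bp from a start of lncRNA:CR43650, at rank 1903. The strongest in that transcript lay 9483 bp from its first start, at rank 838. For mir-14 the summit was 953 bp upstream and 35 bp from the start of lncRNA:CR43651, with a signal value of 115.5 and rank 6746. Replicate 1 placed it at percentile 43.5, and replicates 2 and 3 at 83.3 and 79.3, so it was a weak peak and weakest in replicate 1. A stronger one at rank 640 lay 3828 bp downstream of mir-14, in intergenic sequence.

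**Figure D3:**
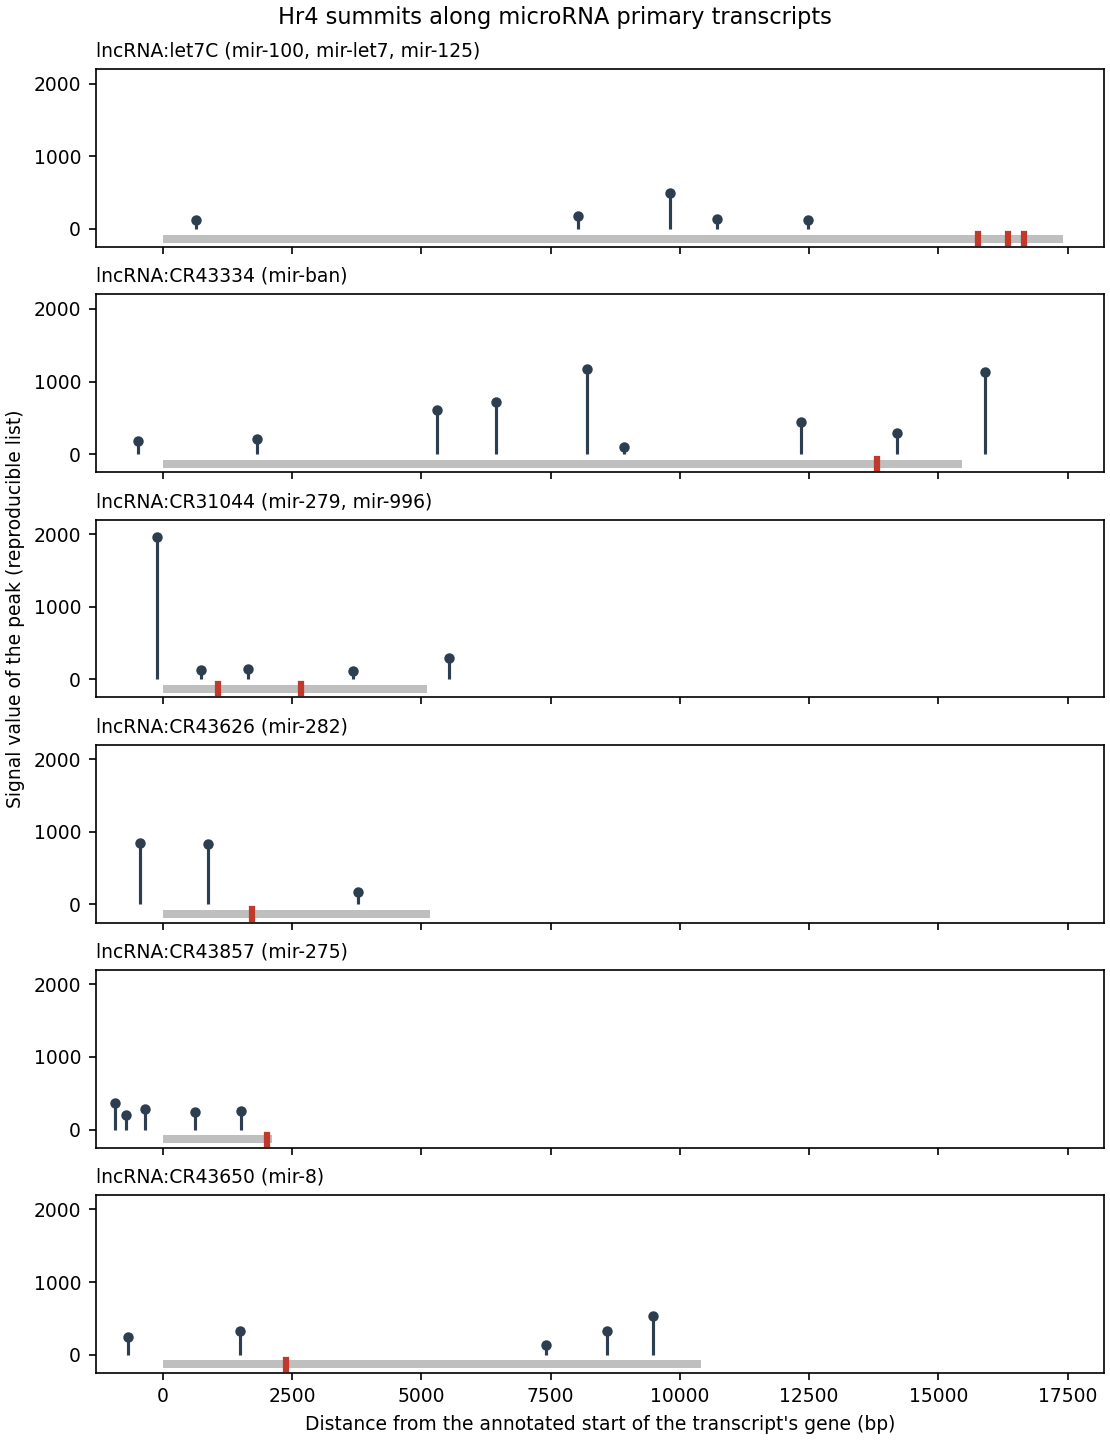
Signal value of each reproducible Hr4 summit in or within 1 kb of 6 annotated microRNA primary transcripts, by distance from the annotated start (bp). Grey bars are the transcripts' spans, red ticks the microRNA hairpins and dark stems the summits, the tallest being the 1961 at the start of lncRNA:CR31044.

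For 156 of the microRNA genes the smallest longer gene that holds them is protein-coding, on the same strand for 131. When only protein-coding genes were allowed as hosts, 166 had one. Of the 156, 16 (10.3%) had a summit within 1 kb and 57 (36.5%) within 5 kb. A summit lay inside 60 of the 137 distinct host genes (43.8%), and inside 15.6% of all protein-coding genes. The hosts' median length is 12892 bp against 2166 bp for all, and they held 0.0863 summits per kb of span against 0.0617. Protein-coding genes of matched length were not compared. Most summits were held by mam, a Notch coactivator, with 19, and its microRNA, mir-4978, lies on the opposite strand. Next came SKIP with 18 (mir-1010), Tlk with 17 (mir-4962) and hth, a homeodomain cofactor, with 16 (mir-4944).

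The jigr1 gene (chr3R:25637843-25651874) carries mir-92a in an intron and mir-92b near its 3′ end, and held 6 summits. The smallest host of mir-92b is lncRNA:CR45917, so it was counted with the non-coding hosts. The one 423 bp downstream of mir-92a lay 223 bp from an internal start site of jigr1, with a signal value of 506.0 and rank 939. Its percentiles were 98.5, 94.6 and 95.6. A summit in the 3′ UTR, 113 bp downstream of mir-92b, had a signal value of 234.7 and rank 3102. The members of this pair share a seed, and each had its own close summit.

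In spi, which encodes the main EGF receptor ligand Spitz, mir-2a-1 and mir-2b-2 share an intron. The same summit was nearest to both, 951 bp and 659 bp upstream, with a signal value of 285.9 and rank 2385. It was also the nearest to mir-2a-2, likewise intronic in spi, at 1362 bp upstream. A stronger summit at rank 594 lay 331 bp from a start site of spi. The mir-2 family represses the cell death genes reaper, grim and sickle.

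Other intronic microRNA genes had a close summit of their own. The one 146 bp upstream of mir-2491, within fog, whose product folds the embryo's epithelium, had a signal value of 551.2 and rank 811, with percentiles of 96.6, 97.0 and 97.8. On the opposite strand to its host CG32085, mir-274 had one 541 bp upstream at rank 1512. Summits of rank 2236 to 2460 lay 524 bp from mir-9378 in CG17124, 352 bp from mir-9377 in Tis11 and 423 bp from mir-4968 in Mob2. These 5 were held by all replicates, each at percentile 90.5 or above.

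The remaining intronic or exonic cases were weak. Their ranks ran from 5279 for mir-4978 in mam to 8477 for mir-2282 in sty, the lowest of all 28 genes. Between them came mir-4967, 61 bp from a summit in Pka-R2, mir-308 in the ribosomal protein gene RpS23, mir-4985 in Fatp3, mir-4956 in the sex determination gene Sxl, mir-4957 in Top1 and mir-4962 in Tlk. Of these weak cases, mir-4978 and mir-4957 lie on the opposite strand to their hosts. The summit near mir-308 lay 19 bp from the start of RpS23, closer to that start than to the hairpin. For 10 of the 28 genes the nearest summit was closer to a start site of an annotated transcript than to the microRNA, and for 7 it lay within 250 bp of such a start.

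Among the 51 microRNA genes in no longer gene, 3 (5.88%) had a summit within 1 kb and 16 (31.4%) within 5 kb. Besides mir-305 these were mir-11182, with a weak summit at rank 6095 that lay 77 bp upstream and 85 bp from the start of CG5726, and mir-2496. Upstream of mir-2496 (chrX:2010300-2010417) summits of rank 987 and 642 lay 484 bp and 695 bp away. Both came from the same peak interval and were nearer to other starts, 141 bp from one of lncRNA:CR45478 and 241 bp from one of PIG-K. The mir-2496 gene lies 2344 bp beyond the end of Hr4 itself (chrX:1941940-2007956), the gene whose product carries the tag. Where the tagged insertion lies in the genome was not stated in the labels, and its part in the signal at mir-2496 was not tested. The last of the 28 genes, mir-375, lies in an exon of lncRNA:CR45345 and had a summit 736 bp upstream at rank 6301.

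Between 1 and 5 kb, strong summits lay near several microRNA genes. For mir-9a, which acts in sensory organ precursors, the strongest of 3 was 4339 bp upstream with a signal value of 1085 and rank 172, and percentiles of 99.2, 99.5 and 99.0. Its nearest, a weak summit at rank 8219, was 3015 bp upstream. The summit at rank 146 near mir-4943 lay 4773 bp upstream and 387 bp from a start of its host CG5953. That at rank 242 near mir-9382 lay 2880 bp upstream and 196 bp from a start of its host MRP. All 3 of these strong summits were nearer to an annotated start site than to the hairpin.

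Both mir-276 genes sat in long non-coding transcripts with several summits. The transcript of mir-276a (lncRNA:CR46006, 43950 bp) held 7, the nearest 2183 bp upstream at rank 8249. That of mir-276b (lncRNA:CR46004) held 3, the nearest 1233 bp upstream at rank 6862 and the strongest at rank 1156. For mir-7 the nearest summit was 3584 bp upstream, at rank 6321, in its host HnRNP-K, and for mir-278, which acts in energy balance, 2483 bp upstream at rank 6395. All 4 genes thus had their nearest summit in the weaker part of the list.

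Several well-studied microRNA genes had no reproducible summit within 5 kb. The nearest was 5633 bp from mir-34 and 6546 bp from mir-277, which share a transcript, 7274 bp from the muscle microRNA mir-1, 8894 bp from mir-184 and 13049 bp from mir-iab-4, a regulator of Ubx. The neuronal mir-124 was the farthest of these, at 81994 bp. At mir-1, but at none of the other 5, each replicate's relaxed list held an entry within 1 kb. Just outside 1 kb lay mir-965 at 1066 bp and mir-310 at 1182 bp, and just inside mir-996 at 960 bp and mir-4962 at 958 bp.

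The clusters with most genes had 1, 0 and 2 summits within 5 kb of a gene. All 198 loci together had 161 such summits, and 76 loci (38.4%) had at least 1. The largest, mir-972 to mir-979 on the X, has 12 genes, and 1 summit at rank 2693 lay within 5 kb of 2 of them. The 8 genes of mir-6-3 to mir-309, on arm 2R, had none, the nearest being 8142 bp away. The 7 genes of mir-310 to mir-992, also on 2R, all had a summit within 5 kb but none within 1 kb, and they shared 2 summits. The stronger, at rank 924, lay in an intron of qsm.

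The genes were also split by the number in their symbol, a split chosen after the data were seen. Of the 84 with numbers up to 318 or with a name, 13 (15.5%) had a summit within 1 kb and 35 (41.7%) within 5 kb. Of the 68 with numbers 375 to 1017, 2 (2.94%) and 18 (26.5%) had one. Of the 108 with numbers from 2279, 13 (12.0%) and 41 (38.0%) had one. The middle group had the lowest share at both distances, and it holds most of the large cluster on the X.

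Replicate support was read from the 3 relaxed lists. A replicate held a summit when its list had a summit within 250 bp. All 3 replicates held 25 of the 29 summits within 1 kb (86.2%) and 141 of the 161 within 5 kb (87.6%), and 90.5% of all reproducible summits on the arms. Replicates 2 and 3 each held all 29, and replicate 1 held 25. The 4 missing from replicate 1 were the nearest summits of mir-11182, mir-4962 and mir-4956 and the downstream summit of mir-308. Replicate 1 also listed fewer entries on the X, 3262 against 5753 and 6069 in replicates 2 and 3, and mir-4962 and mir-4956 lie on the X. The part of that difference in the missing summits was not tested.

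**Figure D4:**
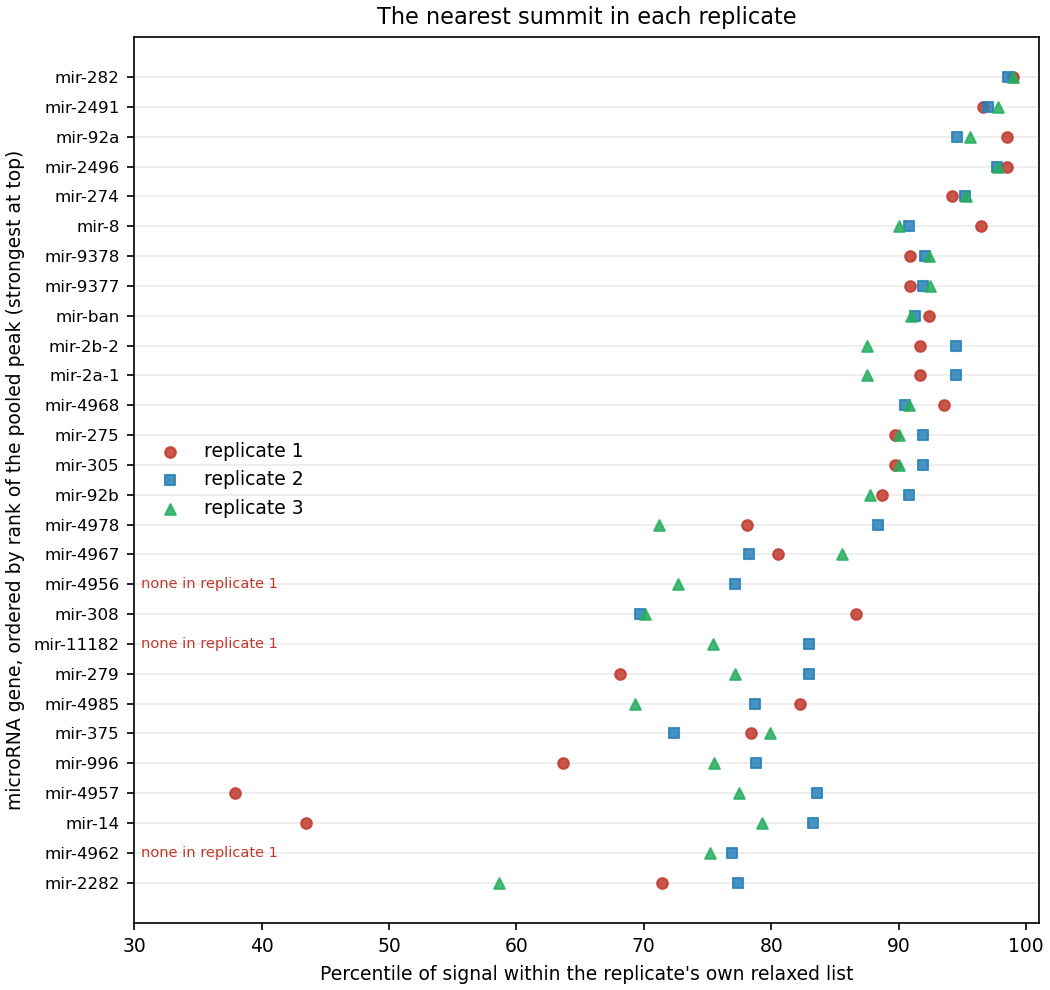
Percentile of the nearest summit within each replicate's own relaxed list, for the 28 microRNA genes with a summit within 1 kb, ordered by rank in the reproducible list. At the top mir-282 sits at 99.0, 98.6 and 99.0, lower rows spread more, with mir-14 from 43.5 to 83.3, and 3 genes have no entry in replicate 1.

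Under the looser rule that each replicate's relaxed list hold a summit within 1 kb, wherever it lies there, 40 microRNA genes passed (15.4%), and 33.9% of all genes did. Of the 40, 15 had no reproducible summit within 1 kb, mir-1, mir-9a, mir-276a and mir-2b-1 among them. The relaxed lists mix peaks with background, and which these entries are was not determined. At the other end, 32 microRNA genes had no entry of any replicate within 5 kb.

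The summits within 1 kb of a microRNA gene had a median signal value of 147.1 and a median rank of 5279, and ranged from 90.20 to 832.7. Those within 5 kb had a median of 197.8 and rank 3803, and all arm summits 176.6 and rank 4350. The closer summits were thus below the whole list by median and the wider set above it, and neither difference was tested. The strongest 1000 of all 8693 reproducible peaks held 5 of the 29 and 23 of the 161.

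By place in the annotation, 34 of the 161 summits within 5 kb lay within 250 bp of a start site (21.1%), 75 in introns (46.6%) and 32 between genes (19.9%). For all arm summits these shares were 19.9%, 54.4% and 21.8%. Exons of non-coding genes held 14 of the 161 (8.70%) against 1.44% of all, and 6 of the 29 within 1 kb. The microRNA transcripts are themselves such genes, so this class is tied to how the set was chosen.

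Motifs were counted on both strands within 50 bp of each summit. AGGTCA was found at 2 of the 161 summits (1.24%) and at 1.80% of all. Its extended form AAGGTCA was at none of the 161 and at 0.679% of all. Within 100 bp both orders turned, with AGGTCA at 4.97% against 3.98% and AAGGTCA at 1.86% against 1.38%. GAGAG, the letters bound by the GAGA factor, was at 8 of the 161 within 50 bp (4.97%) against 8.38%. Any AAGGTCA is also counted as AGGTCA. GC content was 33.0% ± 8.45 (SD over 161 summits) against 31.7% ± 7.59 over all 8687.

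Seeds were compared by a single arm of each hairpin, chosen as above, so paralogues read from different arms, such as mir-276a and mir-276b, were not grouped, and the families depend on that choice. By this choice 16 seeds were shared by 2 or more genes, 52 genes in all. Of these 52, 9 had a summit within 1 kb and 23 within 5 kb, where 10.8% and 36.2% of all 260 did. The seed AUCACAG of the mir-2 family was shared by 13 genes, mir-308 among them. A summit lay within 1 kb of 3 of these and within 5 kb of 5. AUUGCAC, the seed of mir-92a, mir-92b and mir-310 to mir-313, had 2 and 6 of 6 genes. GACUAGA had 2 of 3 at both distances, mir-286 being the gene without. Within these families mir-2a-1, mir-2a-2 and mir-2b-2 lie side by side and share summits. The same holds for mir-279 and mir-996 and for mir-310 to mir-313, so the counts are not independent.

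Genes that make and use microRNAs and other small RNAs, among them Dcr-2, r2d2 and AGO2, were described from a list of 14. A summit lay within 1 kb of the span of 5 (35.7%), where 30.3% of all protein-coding genes had one, their median lengths being 5188 and 2166 bp, and within 1 kb of a start site of 4 (28.6%), where 22.7% had one. The strongest was at r2d2, a partner of Dicer-2, with a signal value of 514.7, rank 917, and percentiles of 98.4, 93.1 and 96.6. At gw, which encodes the Argonaute-1 partner Gawky, it was 406.3 and rank 1351. Nbr, which trims microRNA ends, had rank 4051. AGO1 had 6934, with no entry in replicate 1. Ranbp21, an exporter of hairpins, had a summit near its span only. None of drosha, pasha, Dcr-1 and loqs, the core of hairpin processing, had a summit within 1 kb, nor had lin-28, Tailor, Hen1, Dcr-2 and AGO2.

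Of 12 protein-coding genes known as targets, 11 (91.7%) had a summit within 1 kb of the span, but their median length is 36945 bp. Within 1 kb of a start site, 6 had one. The target of bantam, hid, a cell death gene, had the strongest of these, with a signal value of 867.9, rank 308, and percentiles of 99.3, 98.5 and 98.9. The other 5 were aop (a target of mir-7, rank 2710), Eip74EF (mir-34, 2765), EcR (mir-14, 3426), ush (mir-8, 4946) and Delta (mir-1, 8471). Delta had no entry in replicate 1. By span only, ab, chinmo, ena, ex and Ubx had summits, and sens, a target of mir-9a, had none. These lists were chosen with earlier results of the data known. The shares of both lists are near or above those of all protein-coding genes, whose median length is lower. No set of matched length was compared and no test was made.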

How the data were processed

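Hr4-GFP ChIP-seq of 3 biological replicates (replicate numbers from the labels, 1 group) was used as deposited peak lists in build dm6. Per the text files the authors deposited, each replicate's alignments and a control gave a relaxed list that mixes peaks with background, and the reproducible list by irreproducible discovery rate analysis of the relaxed lists. The unit is the peak's signal value as the authors deposited it, and is comparable only within a list. Not given in the sources used here are the aligner, peak caller, versions and thresholds. Read depth is unknown, so no counting interval was given. The dm3 lists and the control were not used.

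Genes came from Ensembl release 115 (BDGP6), with 5809 transposable element and 481 mature product entries left out. All 260 microRNA genes had the same span in RefSeq. On all 6 arms no peak ran past the end of the reference. Of 8693 reproducible peaks, 6 on the mitochondrial genome were left out. Distances run from a gene's span to the summit. A host is the smallest longer gene that contains the whole microRNA gene. Summits within 250 bp counted as held by a replicate, whose highest entry there gave the percentile, so neighbouring summits can share an entry. Distance counts were checked on simulated data. Python 3.11.15, pandas 2.3.3 and numpy 2.4.6 were used.

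Named are the genes with a summit within 1 kb and their hosts, those nearest the 5 strongest summits between 1 and 5 kb, a list of well-studied microRNAs, the loci with most genes or summits, and listed pathway or target genes. Further genes were named after their values were seen. Members and lists were chosen with earlier results of these data known. With 1 group no comparison between conditions was tested. Alternatives varied the distance, reference point, peak subset, replicate, locus gap, host rule and window.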

Additional observations from a re-analysis of the deposited data

How the results depend on the processing

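The counts of genes near a summit followed the distance used. Within 250 bp, 500 bp and 2 kb of the span, 4, 12 and 43 microRNA genes had a summit in place of 28 at 1 kb, and 43 at 2 kb and 158 at 10 kb in place of 94 at 5 kb. With only the reproducible peaks above the median signal, 15 had one within 1 kb. Other short genes gave 4.14% under that setting, against 5.77% of microRNA genes, and within 5 kb 21.6% against 26.5%, so the microRNA share was then the higher at both distances. With the highest entries of replicate 1 it was also the higher, at 10.8% against 8.68% and 38.5% against 37.7%, but with those of replicates 2 and 3 the lower. Taken from each replicate's own highest entries, as many as the reproducible list holds, 28, 33 and 30 genes had one within 1 kb and 100, 99 and 96 within 5 kb. The number of summits within 1 kb held by every replicate used ran from 25 to 29 when a replicate was left out, and was 29 without replicate 1. The AGGTCA share near microRNA genes was 4.97% within 100 bp of the summit, when 3.98% of all summits had it, and AAGGTCA was at 1.86% against 1.38%, so the order of both against the whole list turned with the window. Of the pathway and target genes, 16 had a summit within 1 kb of the span and 10 within 1 kb of a start site. Changes of the locus gap, host strand, reference point, shared intervals and replicate distance moved their counts by less than 1.5 times. No paired analysis was possible because the series holds 1 group. Peaks were called by the authors at unknown depth, so a gene without a summit is one with no reproducible peak in these lists, not one without Hr4.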
